A study of Homo sapiens with 6 samples.

Results

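The genes described here encode the NRF2 pathway, the enzymes that make and use glutathione, the thioredoxin system, ferritin and the aldo-keto reductases. They were chosen by name, as a fixed list of 47 symbols, and 46 of them were found among the 18539 genes of the deposited table. AKR1B10 was not analysed here. RNA came from A375, an established human malignant melanoma cell line, infected with lentivirus carrying a short hairpin RNA and selected with puromycin. Cells that received a control hairpin (shControl, 3 libraries) were compared with cells that received a hairpin against the secreted gelatinase MMP9 (shMMP9, 3 libraries). Both groups share the vector, the infection and the selection, a single hairpin sequence stands for the knockdown, and no label says whether replicates were separate cultures, so the p-values reflect library-to-library spread that could be technical only.

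NRF2, the protein of NFE2L2, is a transcription factor that KEAP1 holds in the cytoplasm and hands to a CUL3 ubiquitin ligase for degradation. When oxidants or electrophiles modify KEAP1, NRF2 accumulates, pairs with small MAF proteins and binds antioxidant response elements near genes for glutathione synthesis, quinone reduction, NADPH supply and iron storage, while BACH1 represses many of the same genes, HMOX1 in particular. Pigment cells make quinones and hydrogen peroxide during melanin synthesis, and melanoma cells rely on the same defences.

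Levels are scaled counts, which are read counts brought to a common 75th percentile in every library (45.4), and a change is the log2(scaled count + 1) of shMMP9 less that of shControl, tested with limma. Of the 46 genes, all of which passed the filter on low values, 17 rose, 17 fell and 12 did not pass an adjusted p of 0.05. Over all 17194 genes tested, 57.5% passed, 25.0% upward and 32.5% downward. Among the 11463 tested genes at or above the level of the weakest of the 46, 64.0% passed (29.6% upward, 34.4% downward). The median change was -0.07 for the 46 genes and -0.05 for all genes. So many genes passed that the count alone says little, and the pattern lies in which members moved, in which direction and how far. Changes of 2-fold or more on this scale were found in 5 members upward and 2 downward, where 8.17% of all genes changed that far (3.22% upward, 4.96% downward). The groups did not overlap for 36 of the 46 members (17 higher, 19 lower), against 62.7% of all genes (27.6% higher, 35.1% lower).

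**Figure D1:**
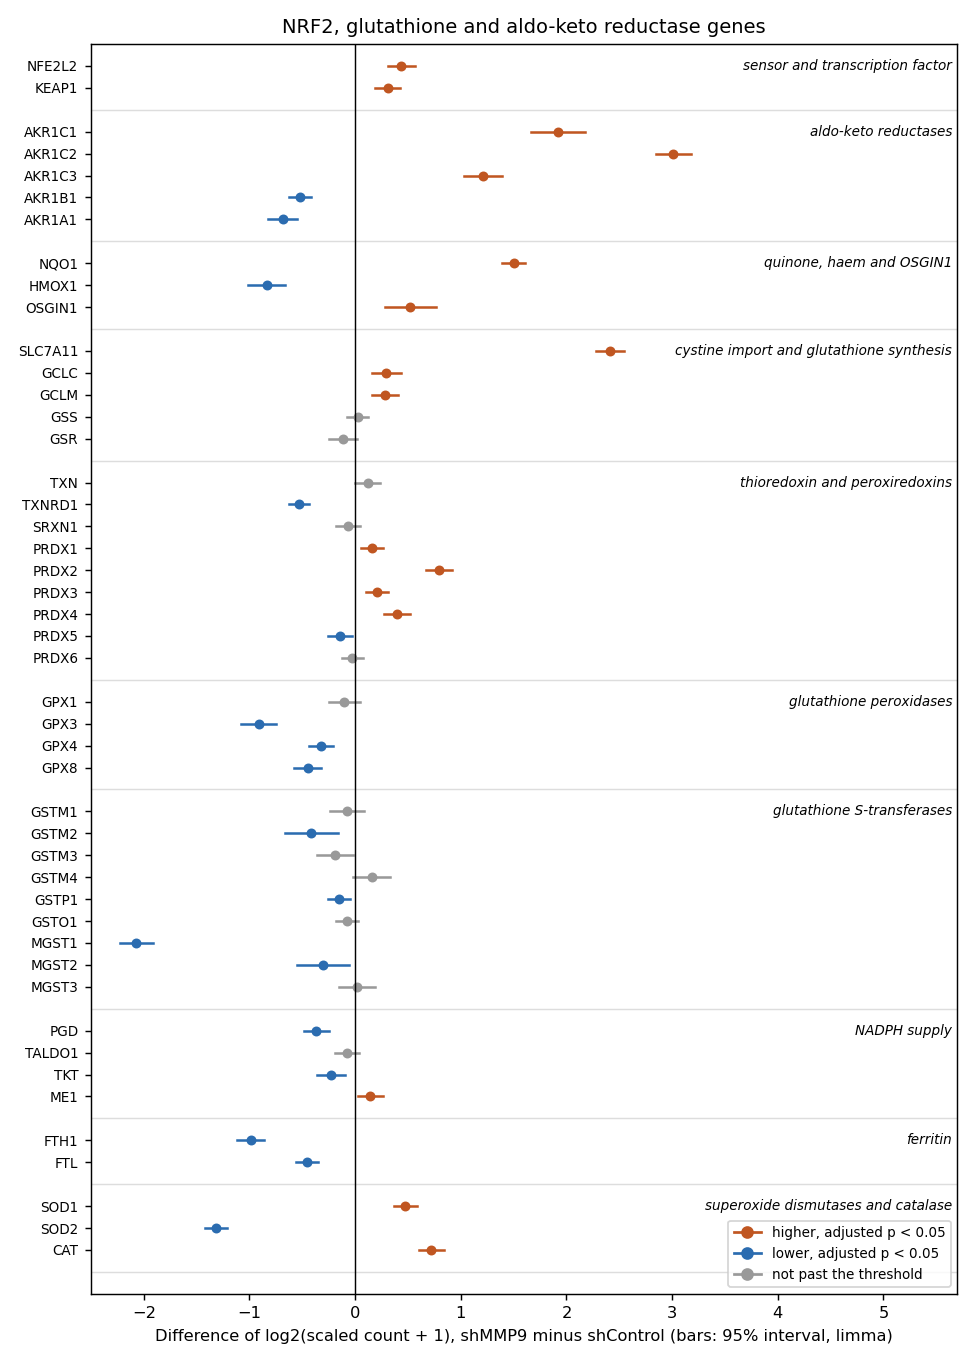
Change of each of the 46 genes (x axis, log2(scaled count + 1) in shMMP9 less that in shControl, with the 95% interval from limma), grouped by role. AKR1C2 at 3.01, SLC7A11 at 2.41, AKR1C1 at 1.92, NQO1 at 1.50 and AKR1C3 at 1.21 lie farthest to the right, and MGST1 at -2.07 and SOD2 at -1.32 farthest to the left.

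The libraries held an estimated 21854117 to 28005535 reads in listed genes. The hairpin target, cattcagggagacgcccattt, falls within exon 4 (of 13) of MMP9 at chr20:46010992-46011012 (GRCh38, plus strand), within its transcript and no other of the GENCODE set. MMP9 itself had levels of 26.1, 24.3 and 28.7 in shControl and 16.2, 14.6 and 17.1 in shMMP9, so the knockdown left 0.605 times the control level (log2 change -0.69, SE 0.0847, adjusted p = 1.25e-05). Genes of the mitochondrial genome held 1.64 to 1.79% of reads in shControl and 0.617 to 0.708% in shMMP9. Markers of the melanocyte lineage summed to 1487 to 1598 in shControl and 2598 to 2717 in shMMP9 (13 of 15 analysed here, 6 rising and 3 falling of 11 tested), with SOX10 at 378 and 785 on average and the melanosome genes PMEL, MLANA and TYRP1 below 2 in every library. The marker sums for fibroblasts (46.4 to 52.9 against 27.1 to 29.95), endothelium (56.8 to 65.9 against 23.3 to 27.1), keratinocytes (83.5 to 94.8 against 137 to 147), leukocytes (114 to 136 against 98.4 to 101) and hepatocytes (22.1 to 24.2 against 16.6 to 18.7) also differed between the groups, and their part in the results was not tested. In the endothelial list 2 of 7 genes rose and 2 fell. Its group means went from 49.9 to 4.56 for TIE1, from 6.44 to 16.1 for KDR, from 0.769 to 0.110 for CDH5 and from 1.19 to 2.05 for PECAM1, and VWF had means of 1.01 and 0.811. Of 3 keratinocyte genes tested 2 rose and 1 fell. KRT10, with means of 71.6 and 111.6, made up most of that sum, and DSC3 fell from 13.6 to 11.1. Of 5 fibroblast genes tested 1 rose and 4 fell, with COL1A1 going from 18.4 to 3.15 and PDGFRA from 2.16 to 5.46. CD68 made up most of the leukocyte sum, and SERPINA1 was the hepatocyte marker analysed. The analysed markers of these lists were 8 of 9 for fibroblasts, 7 of 8 for endothelium, 4 of 9 for keratinocytes, 4 of 8 for leukocytes and 1 of 5 for hepatocytes. In RNA from bulk cultures, fewer cells that express a gene and less of its RNA per cell cannot be told apart.

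Both genes at the head of the pathway rose by modest amounts. NFE2L2 stood at 50.2, 48.3 and 49.6 in shControl and at 72.9, 64.8 and 64.4 in shMMP9. That is a log2 change of 0.44 (SE 0.0591, adjusted p = 3.06e-05), with no overlap. AGPS, whose exons overlap those of NFE2L2 on the opposite strand, changed by 0.44 as well. Without a stated strand setting, reads over the shared exons cannot be assigned to either gene. The longest NFE2L2 coding transcript itself shares no stretch of 50 bases with AGPS, and 5.06% of its stretches with another gene, AC079305.1. KEAP1 stood at 86.6, 97.3 and 92.6 in shControl and at 113, 112 and 118 in shMMP9 (log2 change 0.31, SE 0.0536, adjusted p = 0.000278). The gene for the transcription factor and the gene for its inhibitor thus both rose, by 1.36 and 1.24 times as ratios of means. These are transcript levels, and NRF2 activity is set mainly by protein stability, which was not measured.

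Of the 47 listed genes, 37 matched an entry of the RefSeq promoter set (GRCh38.p14, 250 bases before to 50 after the start of the gene). AKR1B10, HMOX1, GSS, GSR, SLC7A11, PRDX1, PRDX6, MGST2, FTH1 and SOD1 had none. The core of the antioxidant response element was searched as TGACNNNGC on both strands, and 7 of the 37 promoters held it (18.9%), against 13.3% of the 35116 promoters of the same length. For members 1 entry each was used, and for the 13.3% every entry of the set. The AP-1 site TGANTCA can lie within the element, as it did at GSTP1 and ME1. The matches are shown because members that rose and members that fell both carry the element. Those shown are centred 30 to 196 bases before the start of the gene, and TXNRD1 and ME1 each had 1 more match, not shown. Capitals mark the motif, which at GCLM and PGD lies on the strand opposite to the gene and so reads as its reverse complement.
GCLM, which rose, at chr1:93909446-93909474: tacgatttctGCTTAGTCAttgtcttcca
ME1, which rose, at chr6:83431170-83431198: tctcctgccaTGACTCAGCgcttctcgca
TXNRD1, which fell, at chr12:104215670-104215698: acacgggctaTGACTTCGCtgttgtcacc
PGD, which fell, at chr1:10398853-10398881: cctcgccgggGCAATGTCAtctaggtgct
GSTP1, which fell, at chr11:67583736-67583764: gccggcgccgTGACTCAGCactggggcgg
The genes GCLM and ME1 lie on the minus strand and the other three on the plus strand. GSTM1 and GSTO1, which did not pass the test, also had the element, and 12 members that rose and 11 that fell had none in this window. Elements farther from the start were not searched, so a gene without a match here, such as NQO1 or GCLC, may still have one. The calls of ME1 and GSTP1 were weak and did not hold with every library left out. A match describes the letters only.

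The aldo-keto reductases changed in both directions. The AKR1C enzymes reduce steroids, prostaglandins and lipid aldehydes, and all 3 genes measured rose. AKR1B1 and AKR1A1, which reduce glucose and a range of small aldehydes, both fell. For comparison, 25.0% of all genes rose and 32.5% fell. The rises of AKR1C1 and AKR1C2 may not be separate observations, since these genes share sequence. AKR1C2 had levels of 7.21, 6.73 and 6.08 in shControl and 61.5, 61.7 and 58.8 in shMMP9. Its lowest shMMP9 value lay far above its highest shControl value, with a log2 change of 3.01 (SE 0.0764, adjusted p = 3.14e-12), the largest rise among the 46 genes. AKR1C1 had levels of 2.41, 2.01 and 1.80 in shControl, from 48.2 to 67.6 estimated reads, and 10.7, 11.3 and 9.87 in shMMP9 (log2 change 1.92, SE 0.119). AKR1C3, a prostaglandin F synthase that also makes androgens, had levels of 8.16, 8.48 and 8.77 in shControl and 20.4, 20.5 and 21.8 in shMMP9 (log2 change 1.21, SE 0.0821, adjusted p = 4.05e-08).

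The AKR1C genes lie side by side on chromosome 10 (AKR1C1 at 4963253 to 4983283, AKR1C2 at 4987400 to 5018031, AKR1C3 at 5035354 to 5107686, GRCh38). AKR1C1 and AKR1C2 share long stretches of sequence, and AKR1C3 shares less with them. Of all stretches of 50 bases in the longest AKR1C2 coding transcript, 50.8% occur in AKR1C1 and 4.56% in AKR1C3, so how the counting divided reads between AKR1C1 and AKR1C2 is uncertain. Their sum does not depend on that division among the 3 genes. It was 17.8, 17.2 and 16.65 in shControl and 92.6, 93.5 and 90.5 in shMMP9, or 17.2 ± 0.565 against 92.2 ± 1.54 (SD, n = 3), 5.35 times higher. An exact two-sided permutation test over the 6 libraries gave p = 0.1, the smallest that 3 against 3 can give. As deposited, AKR1C2 made up 36.5 to 40.6% of the sum in shControl and 65.0 to 66.4% in shMMP9.

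**Figure D2:**
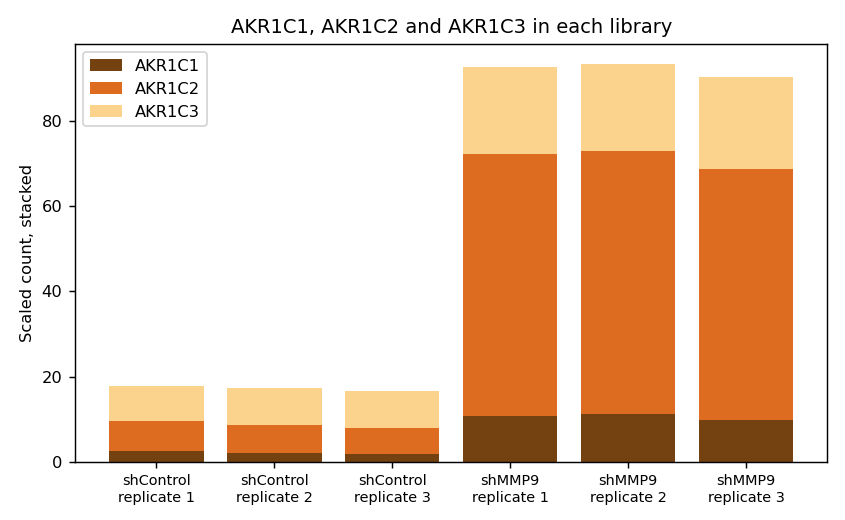
Scaled counts of AKR1C1, AKR1C2 and AKR1C3 stacked for each library (y axis, linear from 0). The stacks reach 16.65 to 17.8 in shControl and 90.5 to 93.5 in shMMP9, and the AKR1C2 part grows most.

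Among the falling aldo-keto reductases, AKR1B1, the aldose reductase of the polyol pathway, went from 427, 430 and 416 to 303, 283 and 300 (log2 change -0.52, SE 0.0472, adjusted p = 6.80e-07). AKR1A1 went from 51.0, 51.1 and 48.8 to 33.2, 28.8 and 30.8 (log2 change -0.69, SE 0.0639). For both genes the shMMP9 values stayed under the lowest shControl value. AKR1B1 remained the most abundant of the 5 per length, at 80.7 scaled counts per kilobase of exon in shMMP9, against 9.39 for AKR1C2 and 4.61 for AKR1C3. The AKR1C rise was thus from a low base.

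NQO1 and HMOX1, which are often read together as NRF2 targets, moved in opposite directions. NQO1, which reduces quinones to hydroquinones with NADPH or NADH, had levels of 150.0, 164 and 147 in shControl and 437, 440.1 and 429 in shMMP9 (log2 change 1.50, SE 0.0508, adjusted p = 4.00e-11). It was 2.84 times higher as a ratio of means. A transcript on the opposite strand overlapping NQO1, AC092115.2, had means of 0.357 and 1.18, far below it. HMOX1, which splits haem into iron, carbon monoxide and biliverdin, had levels of 32.6, 32.4 and 30.8 in shControl and 18.0, 15.5 and 19.0 in shMMP9. All 3 shMMP9 values lay below the shControl range, at 0.548 times its mean (log2 change -0.84, SE 0.0801, adjusted p = 1.18e-06). OSGIN1, a growth-inhibitory gene induced by oxidative stress, rose weakly from 4.17 ± 0.256 to 6.43 ± 0.435 (SD, n = 3; log2 change 0.52, adjusted p = 0.00128).

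**Figure D3:**
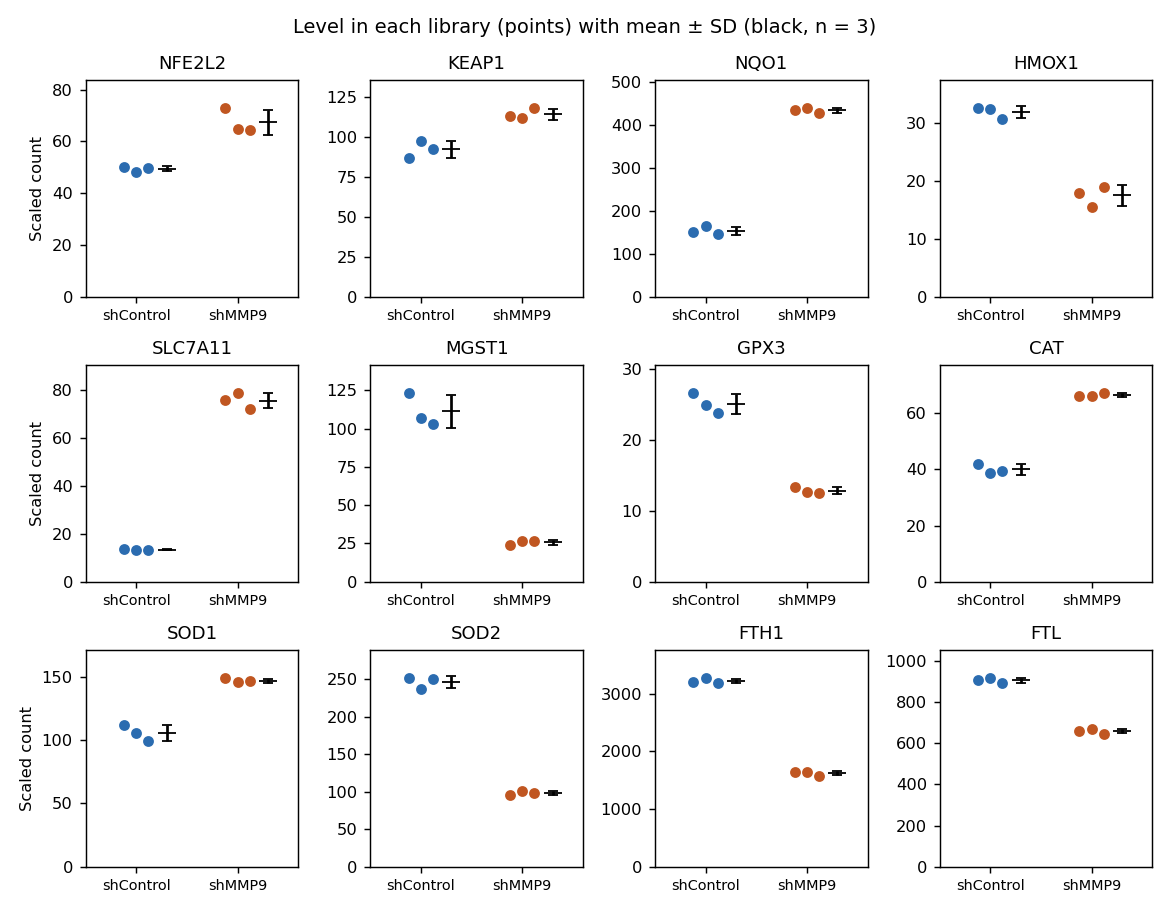
Scaled count (y axis, linear from 0) of 12 genes in each library (points), with mean ± SD in black (n = 3 per group). The groups do not overlap in any panel: NFE2L2, KEAP1, NQO1, SLC7A11, CAT and SOD1 are higher in shMMP9, and HMOX1, MGST1, GPX3, SOD2, FTH1 and FTL are lower.

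Transcripts of the cystine transporter xCT and of the first enzyme of glutathione synthesis rose together but by very different amounts. Transport and enzyme activity were not measured. SLC7A11 encodes xCT, the transporter that takes up cystine in exchange for glutamate and so feeds glutathione synthesis. It had levels of 13.6, 13.1 and 13.3 in shControl and 75.6, 78.5 and 72.1 in shMMP9, a log2 change of 2.41 (SE 0.0613, adjusted p = 3.14e-12). Its shMMP9 mean was 5.66 times the shControl mean, with 356 to 402 estimated reads per shControl library behind it. Of its 50-base stretches 9.29% occur in other annotated genes, mostly in the antisense transcript SLC7A11-AS1 (8.08%). Glutamate-cysteine ligase, the rate-limiting enzyme, has a catalytic subunit, GCLC, and a modifier subunit, GCLM. GCLC had levels of 28.0, 29.5 and 29.2 in shControl and 35.8, 33.7 and 37.7 in shMMP9 (log2 change 0.29, SE 0.0640, adjusted p = 0.00147). GCLM had levels of 50.2, 47.2 and 44.1 in shControl and 57.8, 57.7 and 56.9 in shMMP9 (log2 change 0.28, SE 0.0584, adjusted p = 0.00105). No difference in the proportion of the 2 subunits was detected, with a GCLC to GCLM ratio of 0.615 ± 0.0539 in shControl and 0.622 ± 0.0398 in shMMP9 (SD, n = 3; exact two-sided permutation p = 0.9).

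The genes for the last step and for the recycling step did not pass the test. GSS, glutathione synthetase, differed by 0.02 with a 95% interval of -0.08 to 0.12, which excludes the changes seen in GCLC and GCLM. GSR, which uses NADPH to return oxidised glutathione to its reduced form, differed by -0.11 (interval -0.24 to 0.02, adjusted p = 0.122), and without shControl replicate 1 by -0.16 (adjusted p = 0.0274).

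The heavy subunit partner of xCT and most genes of a further list, of cystine and ATF4-responsive genes, went the other way from SLC7A11. SLC7A11 is a target of ATF4 as well as of NRF2. Of the 16 genes of that list 12 fell and 1 rose, with a median change of -0.41, where 32.5% of all genes fell and 25.0% rose. The list was chosen with earlier results of these data known, so no conclusion is drawn from these counts. What part ATF4 or NRF2 had in the SLC7A11 rise was not tested. SLC3A2 and ATF4 were singled out after their values were seen. SLC3A2, the heavy chain that carries xCT to the membrane, fell from 349 ± 40.7 to 257 ± 3.73 (SD, n = 3; log2 change -0.43). NUPR1, a stress-induced chromatin protein gene, fell by 3.30, the asparagine synthetase gene ASNS by 1.13, the arginine transporter gene SLC7A1 by 0.65 and ATF4 itself by 0.24 on the log2 scale. The cystathionine synthase gene CBS stood at -1.18, but 94.6% of its 50-base stretches also occur in its copy CBSL, so that value is uncertain. Likewise 82.0% of those of ASNS occur in an overlapping annotated transcript.

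The genes of the thioredoxin system changed in both directions. Peroxiredoxins reduce peroxides, thioredoxin (TXN) reduces them in turn, and TXNRD1 recharges thioredoxin with NADPH. Of the 9 genes 4 rose (PRDX1, PRDX2, PRDX3 and PRDX4), 2 fell (TXNRD1 and PRDX5) and 3 did not pass (TXN, SRXN1 and PRDX6), with the calls of PRDX1 and PRDX5 lost without single libraries. Over all genes 25.0% rose and 32.5% fell. PRDX2, a cytosolic peroxiredoxin, had levels of 111, 125 and 119 in shControl and 212, 194 and 212 in shMMP9 (log2 change 0.80, SE 0.0562, adjusted p = 5.84e-08). Of its 50-base stretches 26.0% occur in other annotated genes, mostly in an overlapping transcript on the opposite strand (21.4%). PRDX4, which works in the endoplasmic reticulum, changed by 0.40 and the mitochondrial PRDX3 by 0.21, both without overlap between groups. TXNRD1, a selenoprotein and a standard NRF2 target, had levels of 416, 416 and 420.2 in shControl and 292, 293 and 282 in shMMP9. It fell by 0.53 (SE 0.0446, adjusted p = 3.37e-07), and its promoter carries the element shown above. SRXN1, which repairs overoxidised peroxiredoxins and is another standard target, differed by -0.07 (interval -0.18 to 0.05, adjusted p = 0.312), with 84.75% of its 50-base stretches shared with an overlapping annotated gene.

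A further list of 22 thioredoxin and glutaredoxin genes also holds genes outside these families, such as the sestrin genes, MSRA, SOD3, CCS and PARK7. Of the 22 genes 9 rose and 8 fell (median -0.04), where 25.0% of all genes rose and 32.5% fell. TXNIP, which binds and blocks thioredoxin, fell from 134 ± 19.6 to 36.0 ± 1.42 (SD, n = 3; log2 change -1.86, adjusted p = 8.40e-10). The mitochondrial thioredoxin reductase gene TXNRD2 fell by 0.98. The sestrin gene SESN3 rose by 1.39 and SOD3, the secreted superoxide dismutase, by 1.51, from 6.57 ± 0.822 to 20.8 ± 4.17 (SD, n = 3).

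Of the 4 genes for glutathione peroxidases, which reduce peroxides with glutathione, 3 fell and none rose, where 32.5% of all genes fell and 25.0% rose. GPX3, the secreted form, had levels of 26.6, 24.9 and 23.8 in shControl and 13.4, 12.7 and 12.5 in shMMP9 (log2 change -0.91, SE 0.0767, adjusted p = 3.28e-07). GPX8, of the endoplasmic reticulum, fell by 0.45. GPX4, which reduces lipid peroxides in membranes and restrains ferroptosis, had levels of 141, 145 and 142 in shControl and 115, 106 and 121 in shMMP9 (log2 change -0.33, SE 0.0531, adjusted p = 0.000158). For these 3 genes no shMMP9 library reached the shControl range. GPX1, the cytosolic form, differed by -0.10 (adjusted p = 0.206), and without shControl replicate 1 by -0.18 (adjusted p = 0.00351).

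Of the 9 glutathione transferase genes 4 fell, 5 did not pass and none rose, where 32.5% of all genes fell and 25.0% rose. The membrane-bound MGST1 had the largest fall of all 46 genes. MGST1 conjugates glutathione to electrophiles and reduces lipid peroxides at the endoplasmic reticulum and outer mitochondrial membrane. It had levels of 123, 107 and 103 in shControl and 23.8, 26.7 and 26.5 in shMMP9, a log2 change of -2.07 (SE 0.0716, adjusted p = 4.93e-11). None of its 50-base stretches occurs in another annotated gene, and its shMMP9 mean was 0.231 times the shControl mean. Its relative MGST3 stood at 31.7 ± 3.86 and 31.9 ± 0.431 (SD, n = 3), a difference of 0.02 (interval -0.15 to 0.19, adjusted p = 0.878) that turned to -0.04 without shControl replicate 2 and to -0.03 without shControl replicate 3.

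Among the mu-class genes, 63.0% of the 50-base stretches of GSTM1 and 48.7% of those of GSTM2 are found in other genes, so the separate values of these genes are uncertain. The share was lower for GSTM4 (13.96%) and GSTM3 (5.9%). GSTM2 fell by 0.41 (adjusted p = 0.00787) and GSTM1 and GSTM4 did not pass. GSTM3 differed by -0.19 (adjusted p = 0.0532), and by -0.24 without shControl replicate 2 (adjusted p = 0.0276). Summed over GSTM1 to GSTM4 the level was 68.6 ± 0.582 in shControl and 65.4 ± 2.19 in shMMP9 (SD, n = 3; exact two-sided permutation p = 0.1, the smallest possible). GSTM4 stood at 0.16 (adjusted p = 0.119) and passed, as a rise of 0.21 to 0.22, under the other 2 scalings and limma-voom (adjusted p = 0.0338 to 0.0441). GSTO1, an omega-class enzyme, differed by -0.07 (interval -0.18 to 0.03).

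Of 19 further tested glutathione enzymes 3 rose, 7 fell and 9 did not pass (of all genes 25.0% rose and 32.5% fell). The prostaglandin E synthase gene PTGES rose by 1.28 and GSTK1, a mitochondrial and peroxisomal transferase gene, by 0.54. GLO1, which uses glutathione to clear methylglyoxal, fell from 148 ± 4.39 to 94.2 ± 2.35 (SD, n = 3; log2 change -0.64). GGT1, the ectoenzyme that begins glutathione breakdown, stood at -1.42, with 48.9% of its 50-base stretches shared with related genes. In a further list of other aldo-keto reductases 2 rose, 1 fell and 3 did not pass of 6 tested. KCNAB3, a potassium channel beta subunit gene, stood at 0.72 (adjusted p = 0.0022) from means of 1.01 and 2.30. The KCNAB1 call ended without shMMP9 replicate 3 (adjusted p = 0.0705). That of KCNAB2 ended without shControl replicate 1 (adjusted p = 0.0789) or 3 (adjusted p = 0.118) and without shMMP9 replicate 2 (adjusted p = 0.0842) or 3 (adjusted p = 0.104). AKR7A2, at 0.20 (adjusted p = 0.0525), passed when shControl replicate 2 was left out (adjusted p = 0.00783), when shMMP9 replicate 2 was (adjusted p = 0.0488), and under the other scalings.

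Transcripts for both chains of ferritin, the iron store, fell. FTH1, the heavy chain with ferroxidase activity, had levels of 3209, 3265 and 3182 in shControl and 1647, 1643 and 1577 in shMMP9 (log2 change -0.99, SE 0.0598, adjusted p = 1.27e-08). FTL, the light chain, had levels of 909, 915 and 892 in shControl and 661, 667 and 646 in shMMP9 (log2 change -0.46, SE 0.0483, adjusted p = 2.93e-06). The groups were far apart for both chains. Per kilobase of exon FTH1 and FTL were the most abundant of the 46 genes, at 1585 and 1031 in shControl and 799 and 749 in shMMP9. Of the FTH1 stretches of 50 bases 78.7% also occur elsewhere, mostly in the overlapping gene BEST1, which had means of 5.05 and 2.39, far below FTH1. All 46 genes together held 1.09% of estimated reads in shControl and 0.916% in shMMP9, and FTH1 alone 0.356% and 0.187%.

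Other genes of iron and haem handling fell too, 10 of 15 against 3 that rose (median -0.26), where 32.5% of all genes fell and 25.0% rose. ACO1, the cytosolic aconitase that doubles as an iron regulatory protein, fell from 119 ± 5.26 to 45.7 ± 1.56 (SD, n = 3; log2 change -1.36). The iron transporter gene SLC11A2 fell by 1.46 and the transferrin receptor gene TFRC by 0.51. SLC40A1, the iron exporter gene, went from 1.58 ± 0.457 to 0.208 ± 0.0462 (SD, n = 3).

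Transcripts of the 2 superoxide dismutases among the members changed in opposite directions and that of catalase rose. SOD2, the mitochondrial manganese enzyme, which is also induced by NF-kB, had levels of 251, 237 and 250.3 in shControl and 95.6, 100.5 and 98.1 in shMMP9 (log2 change -1.32, SE 0.0472, adjusted p = 6.88e-11). SOD1, the cytosolic copper and zinc enzyme, had levels of 112, 105 and 99.1 in shControl and 149, 146 and 146 in shMMP9 (log2 change 0.48, SE 0.0516, adjusted p = 3.95e-06). The ratio of SOD2 to SOD1 scaled counts fell from 2.34 ± 0.160 to 0.668 ± 0.0241 (SD, n = 3; exact two-sided permutation p = 0.1, the smallest possible). CAT, the peroxisomal enzyme that splits hydrogen peroxide, had levels of 42.0, 38.5 and 39.3 in shControl and 65.9, 66.1 and 67.1 in shMMP9 (log2 change 0.72, SE 0.0544, adjusted p = 1.15e-07).

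NADPH, which recharges glutathione and thioredoxin, comes from the pentose phosphate pathway and malic enzyme. PGD, an NADPH-forming enzyme of that pathway, had levels of 121, 130.3 and 129 in shControl and 92.8, 101.6 and 100.4 in shMMP9 (log2 change -0.37, SE 0.0530, adjusted p = 5.67e-05). Transketolase, TKT, fell by 0.23 (adjusted p = 0.00593) with shControl levels of 618, 734 and 692 that were wide apart. The malic enzyme gene ME1 went the other way, at 0.14 (adjusted p = 0.0336), a weak call that some libraries left out undid. The transaldolase gene TALDO1, at -0.08, did not pass (adjusted p = 0.242). Of 13 further genes of NADPH supply 8 fell and 2 rose, where 32.5% of all genes fell and 25.0% rose. Among those that fell were the mitochondrial isocitrate dehydrogenase gene IDH2 at -1.15, the folate enzyme gene MTHFD2 at -0.80, RPIA at -0.54 and ME2 at -0.54.

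Several weak calls were lost when a library was left out. PRDX1 was called at 0.16 (adjusted p = 0.0102), but not without shMMP9 replicate 1 (adjusted p = 0.0583) or 2 (adjusted p = 0.0574). PRDX5 was called at -0.14 (adjusted p = 0.0339), but not without shControl replicate 2 (adjusted p = 0.0866) or 3 (adjusted p = 0.0833), nor without shMMP9 replicate 1 (adjusted p = 0.132) or 2 (adjusted p = 0.157). GSTP1, the pi-class transferase, was called at -0.15 (adjusted p = 0.0137), but not without shMMP9 replicate 2 (adjusted p = 0.0733). MGST2 at -0.31 (adjusted p = 0.0328) lost its call without any library but shControl replicate 2 (adjusted p = 0.06 to 0.129). Exons of MGST2 overlap those of MAML3 on the opposite strand, which went from 16.9 to 37.4, but its longest coding transcript shares no 50-base stretch with another gene. ME1 at 0.14 (adjusted p = 0.0336) lost it without shControl replicate 3 or any shMMP9 library (adjusted p = 0.0646 to 0.112). Of the genes that did not pass, TXN at 0.12 (adjusted p = 0.0731) and TALDO1 at -0.08 (adjusted p = 0.242), which encodes transaldolase, passed without shControl replicate 1 (adjusted p = 0.00179 and 0.0295). PRDX6 differed by -0.03 (interval -0.13 to 0.07). Under median-of-ratios scaling, total-read scaling and limma-voom the calls of PRDX5, GSTP1 and MGST2 ended and TXN was called.

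Over the 8 further lists 42 of 133 tested genes rose and 56 fell, 73.7% in all. Of all genes 57.5% passed, 25.0% upward and 32.5% downward, and 64.0% passed among those at or above the level of the weakest member. The lists were chosen with earlier results of these data known, so no conclusion is drawn from this share. Of 17 genes listed as NRF2 control genes, which include its relatives NFE2, NFE2L1 and NFE2L3, 9 rose and 4 fell (median 0.18). SQSTM1, whose product p62 sequesters KEAP1 and is itself an NRF2 target, fell from 1509 ± 73.5 to 608 ± 19.7 (SD, n = 3; log2 change -1.31, adjusted p = 3.66e-10). Its transcript overlaps MRNIP. The kinase gene GSK3B, which marks NRF2 for a further route of degradation, rose by 0.51, the retinoid receptor gene RXRA by 0.61 and the coactivator gene CREBBP by 0.57. Chosen after their values were seen, the repressor gene BACH1 differed by 0.03 (adjusted p = 0.709), and the small MAF gene MAFK fell by 0.41.

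Of 25 further NRF2-responsive genes 13 rose, 6 fell and 6 did not pass (median 0.16), where 25.0% of all genes rose and 32.5% fell. CBR3, a carbonyl reductase gene, rose from 5.50 ± 0.496 to 15.7 ± 1.34 (SD, n = 3; log2 change 1.36, adjusted p = 1.14e-07). An antisense transcript covers 35.7% of its 50-base stretches. The glycine transporter gene SLC6A9 rose by 1.52 and the epoxide hydrolase gene EPHX1 by 0.69. ABCC1, which exports glutathione conjugates, fell from 104 ± 6.53 to 61.3 ± 1.56 (SD, n = 3; log2 change -0.76).

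**Figure D4:**
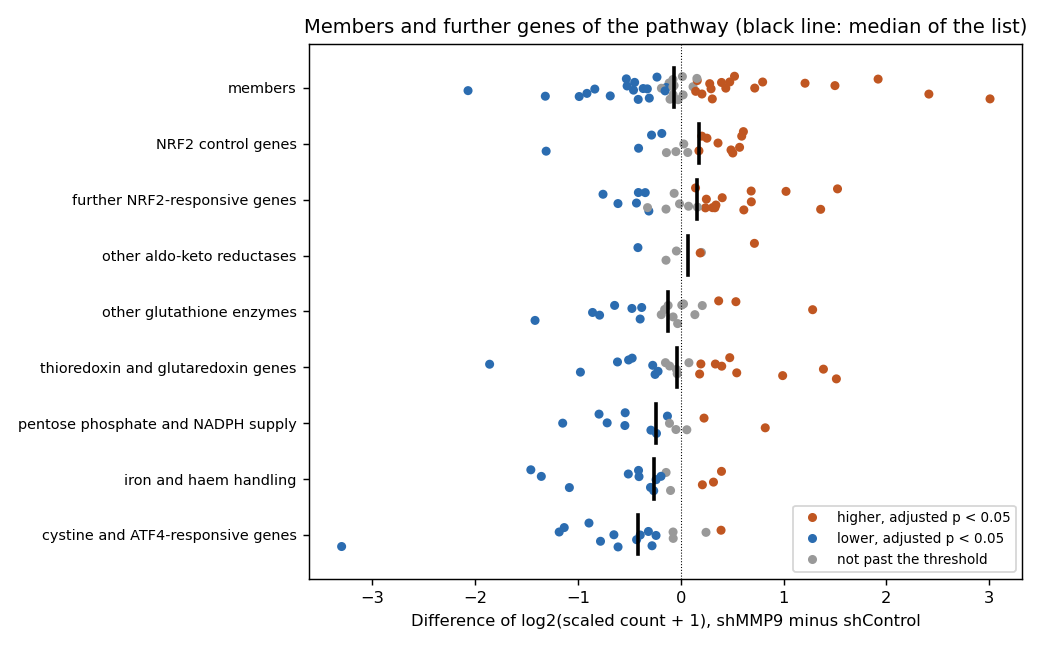
Change of each tested gene (x axis, log2(scaled count + 1) in shMMP9 less that in shControl) for the 46 members and 8 further lists, with the median of each list as a black line, orange for genes that rose, blue for genes that fell and grey for those that did not pass. Medians run from 0.18 for the NRF2 control genes to -0.41 for the cystine and ATF4-responsive genes, and every list has genes on both sides of 0.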

How the data were processed

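The authors deposited 1 table of 18539 genes with a log2 value for each of the 6 libraries. The submitters' processing notes name hg38, STAR 2.6.1d and Partek, without their roles. The sources used here do not say how reads were counted, on which annotation or strand. All values are log2(scaled count + 1), as judged from equal 75th percentiles and whole-read steps. These steps gave estimated reads, 64.5 to 67.8% whole within 0.01 reads, so no count test was used. limma 3.58.1 with a variance trend (R 4.3.3) was run on genes with 10 reads at median depth in 3 libraries and 15 in total, with Benjamini-Hochberg adjustment over 17194 genes. The test was tried on simulated data. Replicates of a group differed by 2.57 to 14.2 in chi-square per gene, so none was a duplicate. Lengths, overlaps and shared 50-base stretches came from GENCODE 29. Symbols of 23 genes had become dates and were left unnamed. Members and lists were chosen with earlier results of these data known. Named genes are MMP9, all members and up to 4 genes per further list with the smallest adjusted p; genes outside this rule are marked in the text or overlap a member. Alternatives were the replicate block, each library left out, other scalings, pseudocounts of 0.25 and 4, no filter, no trend, limma-voom and a threshold of 0.01. Figures used matplotlib 3.10.9.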

Additional observations from a re-analysis of the deposited data

How the results depend on the processing

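Of the 46 members, 33 kept their call and direction under every one of 14 alternative fits. With each library left out, 15 to 18 members rose and 14 to 19 fell, and over all genes 3759 to 4511 rose and 4917 to 5714 fell. Median-of-ratios scaling gave 19 rising and 14 falling members (4949 and 4946 of all genes), and total-read scaling and limma-voom the same member counts. MMP9 stayed lower in all fits (-0.75 to -0.61). The summed AKR1C level differed by 2.42 on the log2 scale, by 2.475 with median-of-ratios scaling, by 2.480 with total-read scaling and by 2.18 with a pseudocount of 4. PRDX6 turned from -0.03 to 0.028 with median-of-ratios scaling and to 0.033 with total-read scaling and limma-voom. MGST3, at 0.02, ranged from -0.037 to 0.111 with a library left out, below 0 without shControl replicate 2 (-0.037) or 3 (-0.027); none of these was called. Without a variance trend 16 members rose and 15 fell, with ME1, PRDX5 and GSTP1 no longer called. Same-numbered libraries did not deviate together (correlations 0.113, -0.248 and 0.013, against -0.269 to 0.328 for the other pairs). No pairing by number was detected, but so few libraries cannot exclude one and the labels do not say. With the replicate number as a block 16 members rose and 18 fell, and 4211 genes rose and 5486 fell over all. In that fit ME1 lost its call (adjusted p = 0.0617) and GSTM3 gained one (adjusted p = 0.0472). Genes with few reads, AKR1C1 in shControl above all, are the least precise, and the log2(scaled count + 1) scale understates their change.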
